A study of Mus musculus with 8 samples.

Results

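Ery B is an erythroid progenitor class that the authors assigned from RNA in a single-cell experiment on mouse bone marrow, and its members were the cells that carry this name in the deposited RNA annotation. The class held 1463 of 22602 annotated cells. Surface proteins took no part in the naming by RNA, so the levels of 35 antibodies measured on the same cells are a separate readout of what these cells carried on their surface.

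Erythroid progenitors arise from progenitors shared with megakaryocytes and lose stem and multipotent surface proteins as they commit. CD105 (endoglin, a co-receptor for TGF-beta family ligands) rises early in this course, CD117 (c-Kit, the receptor for stem cell factor) is kept until the progenitors become erythroblasts, CD44 (a hyaluronan receptor) is abundant on early erythroid cells, and TER-119 (an antigen associated with glycophorin A) appears late and stays on red cells.

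All libraries came from FlkSwitch mice on C57Bl/6, in which stem cells express the fluorescent protein Tom (tdTomato) and a Cre recombinase driven by Flk2 deletes Tom and switches on GFP in cells that pass through a Flk2-expressing stage and in their progeny. Young mice were 2 to 3 months old and Old mice 20 to 24 months old. Bone marrow was enriched for c-Kit, cleared of cells bearing lineage antigens including Ter119, sorted as c-Kit+ CD150- and c-Kit+ CD150+ fractions and profiled by CITE-seq, which reads antibody-derived tags (ADTs) and RNA from each cell. How many animals were pooled is not given in the sources used here. The names of the cells sort them into 16 cell groups, A1 to D4, of which the numbers 1 and 2 are Young and the numbers 3 and 4 Old. None of these names matches the title of any of the 8 libraries, so the cell groups are not replicates of an age, the values below carry the spread over cell groups as a description, and no test was run.

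Nearly all Ery B cells were in letters C and D. These held 1460 of them (99.8%), which was 15.6% of the 9340 annotated cells there (95% exact Clopper-Pearson interval 14.9% to 16.4%, counting error only). The other 3 cells were in cell groups A1 and B1. In letters A and B the class named Ery C was the large one, with 3471 cells over all letters and only 171 in letters C and D, so what sets Ery B apart from the bulk of Ery C cannot be told apart from the letters. Comparisons were therefore made within letters C and D.

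Cell groups numbered 1 and 3 held most members. Ery B made up 17.1% of the cells in C1 (311 cells), 14.7% in C3 (226 cells), 21.7% in D1 (516 cells) and 18.2% in D3 (346 cells). The cell groups numbered 2 and 4 held 12 cells (C2), 13 cells (C4), 25 cells (D2) and 11 cells (D4), or 2.54% to 4.66% of theirs. Of all annotated cells in letters C and D, Ery B made up 16.4% of Young cells (interval 15.4% to 17.4%) and 14.7% of Old cells (13.6% to 15.8%). Against erythroid classes and megakaryocyte-erythroid progenitors (MEP) alone, the order turned, with 30.5% of Young cells (28.8% to 32.2%) and 34.2% of Old cells (31.9% to 36.5%). The sort into CD150 fractions, and how these were pooled, set the shares of classes. The shares by age therefore do not give the abundance of Ery B in bone marrow.

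The cells were deeply read. An Ery B cell of letters C and D had a median of 1860.5 ADT counts, 65251.5 RNA molecules (UMIs) and 6772.5 genes, and the medians of ADT counts ran from 850 in D2 to 2232 in C1. Ery A had a median of 58462.5 UMIs and Ery 4 one of 88012.5 UMIs. The mitochondrial share of RNA counts had a median of 3.60% in Ery B, 3.06% in Ery A and 3.49% in Ery 4. Of the cell barcodes, 52 occurred in more than 1 cell group, and 7 Ery B cells carried such a barcode without sharing it with another Ery B cell. How doublets were treated is not named, and 1 Ery B cell had more than 3 times the median ADT count of its cell group.

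Over all Ery B cells of letters C and D, a single protein took most of the tags. CD44 took 59.9% of their ADT counts (a median of 1122 counts a cell), CD117 took 11.1% (179 counts), CD79b 9.94% (138 counts) and CD105 9.59% (177 counts). CD48 (a SLAM family adhesion protein) followed with 5.56%, TER-119 with 0.904% and Gr1 with 0.616%, and each of the other 28 antibodies stayed at or under the 0.313% of CD9. The cell groups differed, and in C4 and D4 CD44 took 39.2% in each and CD117 38.0% and 40.8%. In C1, C3, D1 and D3 CD44 took 57.5% to 61.9% in Ery B, 56.7% to 60.9% in Ery A and 61.1% to 62.8% in Ery 4. Levels are given from here on as the deposited score of a cell, its count for an antibody relative to the geometric mean of all its antibody counts, put on a logarithmic scale, so that levels are compared as differences. The logarithm was taken 2 times, so the same difference of score is not the same fold change at every level. Counts of different antibodies also carry the antibodies' own staining, so the order between proteins is an order of tags read.

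The proteins named as markers of the class were high in every cell group. The mean score of CD105 was 1.60 in C1, 1.24 in C2, 1.52 in C3, 1.22 in C4, 1.59 in D1, 1.23 in D2, 1.51 in D3 and 1.22 in D4. CD44 was 1.90, 1.76, 1.86, 1.71, 1.90, 1.75, 1.86 and 1.70 in the same order. For both proteins the 4 cell groups numbered 1 and 3 lay above the 4 numbered 2 and 4. CD79b (the signalling partner of the B cell receptor) was 1.49, 1.27, 1.51, 1.25, 1.50, 1.30, 1.51 and 1.16, and split in the same way. CD117, by which all cells were sorted, took the opposite order with 1.56, 1.66, 1.56, 1.71, 1.55, 1.66, 1.57 and 1.69.

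These 4 antibodies had the highest counts of the panel in Ery B. Members and lists were chosen with earlier results of these data known, so the abundance of these markers is no support for the name of the class. Among them, CD79b is known as a protein of B cells. Its score was high in every class of letters C and D, with the lowest of the 20 class means, 0.890, in megakaryocyte progenitors (MKP), and it was higher in letters C and D than in letters A and B in 18 of 18 classes found in both. CD117, used for the sort, had its lowest class mean there at 1.37. CD44 was 1.43 in stem cells (HSC) and 1.79 in GMP/Neut progenitor A. The presence of these 3 proteins thus does not set Ery B apart. CD105 ranged more widely, from 0.425 in the progenitor class MPP C to 1.60 in Ery 4. With the cell groups of each class averaged, Ery B held rank 3 of 20 for CD79b, CD105, CD44, CD117 and TER-119 alike. Ery 4 ranked first for all but CD117, and Ery 4 and Ery C were averaged over cell groups numbered 1 and 3 alone, so that these ranks do not set like cell groups against each other. What part staining of the antibody itself had in the CD79b level was not tested.

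TER-119 and CD150 divided the Ery B cells by cell group. TER-119 was 0.90 in C1, 0.79 in C3, 0.88 in D1 and 0.79 in D3, and 0.25 in C2, 0.24 in C4, 0.22 in D2 and 0.21 in D4. CD150 (Slamf1, a receptor of stem cells and megakaryocyte progenitors, used for the sort) was 0.23 in C1, 0.28 in C3, 0.22 in D1 and 0.26 in D3, and 0.76 in C2, 0.67 in C4, 0.65 in D2 and 0.58 in D4. Neither protein overlapped between the number sets. The means of the sets differed by 0.609 for TER-119, -0.418 for CD150, 0.327 for CD105 and 0.256 for CD79b (numbers 1 and 3 minus 2 and 4). They differed by 0.162 for B220, 0.152 for CD44, -0.152 for CD54, -0.149 for I-A/I-E, -0.131 for CD38 and -0.120 for CD117. Of these proteins, I-A/I-E alone overlapped. CD86 (-0.0608) and CD11b (0.0256) did not overlap either, and the rest of the panel did. A lack of overlap was thus not particular to TER-119 and CD150. The split was not particular to Ery B. In Ery A, TER-119 was 0.73 to 0.81 in the numbers 1 and 3 and 0.0846 to 0.22 in the numbers 2 and 4. CD150 was 0.25 to 0.30 against 0.77 to 0.82 there, and CD105 1.50 to 1.60 against 1.12 to 1.23. The labels do not say which number is which sorted fraction, and the cell groups numbered 2 and 4 hold 61 Ery B cells in all at a median depth of 850 to 1253.5 ADT counts, against 1572 to 2232 in the others.

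**Figure D1:**
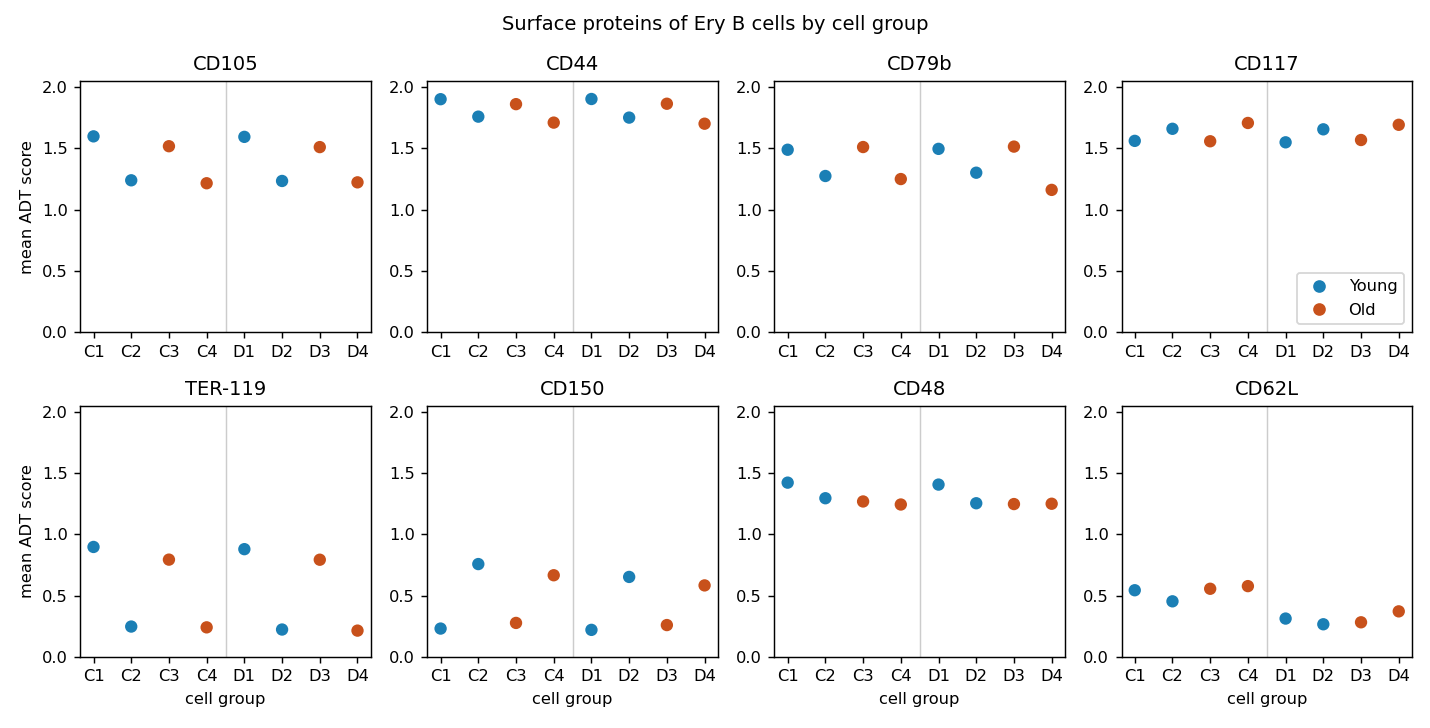
Mean ADT score of Ery B cells (y axis, no unit) in each cell group of letters C and D (x axis) for 8 proteins, blue for Young and orange for Old. CD105, CD44, CD79b and TER-119 were higher in the cell groups numbered 1 and 3, CD150 and CD117 in those numbered 2 and 4, and CD62L was lower in letter D, from 0.27 to 0.37, than in letter C, from 0.45 to 0.58.

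Cells sorted as negative for lineage antigens still carried TER-119 tags. In the 4 cell groups of at least 100 Ery B cells (C1, C3, D1 and D3, 1399 cells), the median Ery B cell had 14 TER-119 counts, against 13 in Ery A, 26 in Ery 4, 1 in Early Ery progenitor B, and 0 in MEP and in the granulocyte class GMP/Neut progenitor A, which should lack the antigen. At least 1 TER-119 count was read in 97.8% of Ery B cells at a median of 1896 ADT counts and in 44.4% of GMP/Neut progenitor A cells at a median of 2572. Ter119 was among the lineage antibodies of the sort, so these are levels of the cells that passed that gate.

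Within a cell group the TER-119 level of Ery B cells was spread wide. Between the 10th and 90th percentiles over cells the score ran from 0.42 to 1.27 in C1, 0.27 to 1.15 in C3, 0.36 to 1.26 in D1 and 0.37 to 1.13 in D3. The CD44 score ran from 1.86 to 1.95 in C1 and from 1.81 to 1.91 in D3. At these scores a step is a larger fold change than at those of TER-119. Neither these ranges nor the SDs that follow therefore rank the proteins by spread. Over all Ery B cells of letters C and D the SD over cells was 0.346 for TER-119, 0.230 for CD48, 0.177 for CD79b, 0.107 for CD105 and for CD117, and 0.0583 for CD44.

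The spread of TER-119 went with that of other proteins. Across the Ery B cells of 1 cell group (226 to 516 cells), Spearman's rho of TER-119 ran from 0.29 to 0.44 with CD105, from -0.55 to -0.48 with CD117, from -0.48 to -0.46 with CD48 and from -0.34 to -0.20 with CD150 over the 4 cell groups. Cells high in TER-119 were thus higher in CD105 and lower in c-Kit and CD48. CD105 and CD44 went together (0.46 to 0.57). These cells share a library and a normalization by the other antibodies of the cell, and TER-119 also fell with the ADT counts (-0.298 to -0.175) and with the RNA UMIs of a cell (-0.29 to -0.23), while CD117 rose with the ADT counts (0.47 to 0.52). The part of depth in these relations was not tested.

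Among all classes, the nearest to Ery B in surface protein were the other late erythroid classes. The Euclidean distance over 35 scores, averaged over C1, C3, D1 and D3, was 0.217 to Ery 4, 0.242 to Ery C and 0.264 to Ery A. It was 1.14 to Early Ery progenitor B and 1.23 to Early Ery progenitor A, and 15 classes could be compared. In letter C the distance to Ery A (0.325 in C1, 0.305 in C3) was above that to Ery 4 (0.201 and 0.208), whereas in letter D both were alike (0.225 and 0.202 to Ery A, 0.239 and 0.219 to Ery 4). CD62L made the largest difference from Ery A in C1 (-0.272) and C3 (-0.270), against -0.109 in D1 and -0.133 in D3. Distances without CD62L were not computed, so the order of Ery 4, Ery C and Ery A may rest on this protein.

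The proteins did not all change between the same classes. CD27 (a TNF receptor family member of stem and lymphoid progenitors) had a mean score over the same cell groups of 1.28 ± 0.020 in MEP (n = 2 cell groups, C1 and D1), 0.75 ± 0.089 in Early Ery progenitor A, 0.69 ± 0.093 (SD, n = 4 cell groups) in Early Ery progenitor B, 0.27 ± 0.022 in Ery A, 0.20 ± 0.010 in Ery B and 0.16 ± 0.023 in Ery 4. CD9 (a tetraspanin of the megakaryocyte and platelet lineage) was 0.86 ± 0.041 in Early Ery progenitor B and 0.53 ± 0.14 in Ery B. TER-119 was 0.0519 ± 0.0010 in MEP, 0.18 ± 0.029 in Early Ery progenitor B and 0.84 ± 0.055 in Ery B. CD105 differed most between MEP (0.73 ± 0.046) and Early Ery progenitor A (1.30 ± 0.042), and was 1.39 ± 0.039 in Early Ery progenitor B and 1.56 ± 0.047 in Ery B. CD41 (integrin alpha IIb of the megakaryocyte lineage) was 0.53 ± 0.046 in MEP, 0.15 ± 0.047 in Early Ery progenitor A, 0.15 ± 0.044 in Early Ery progenitor B and 0.0826 ± 0.017 in Ery B, with a median of 0 counts in the Ery B cells.

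**Figure D2:**
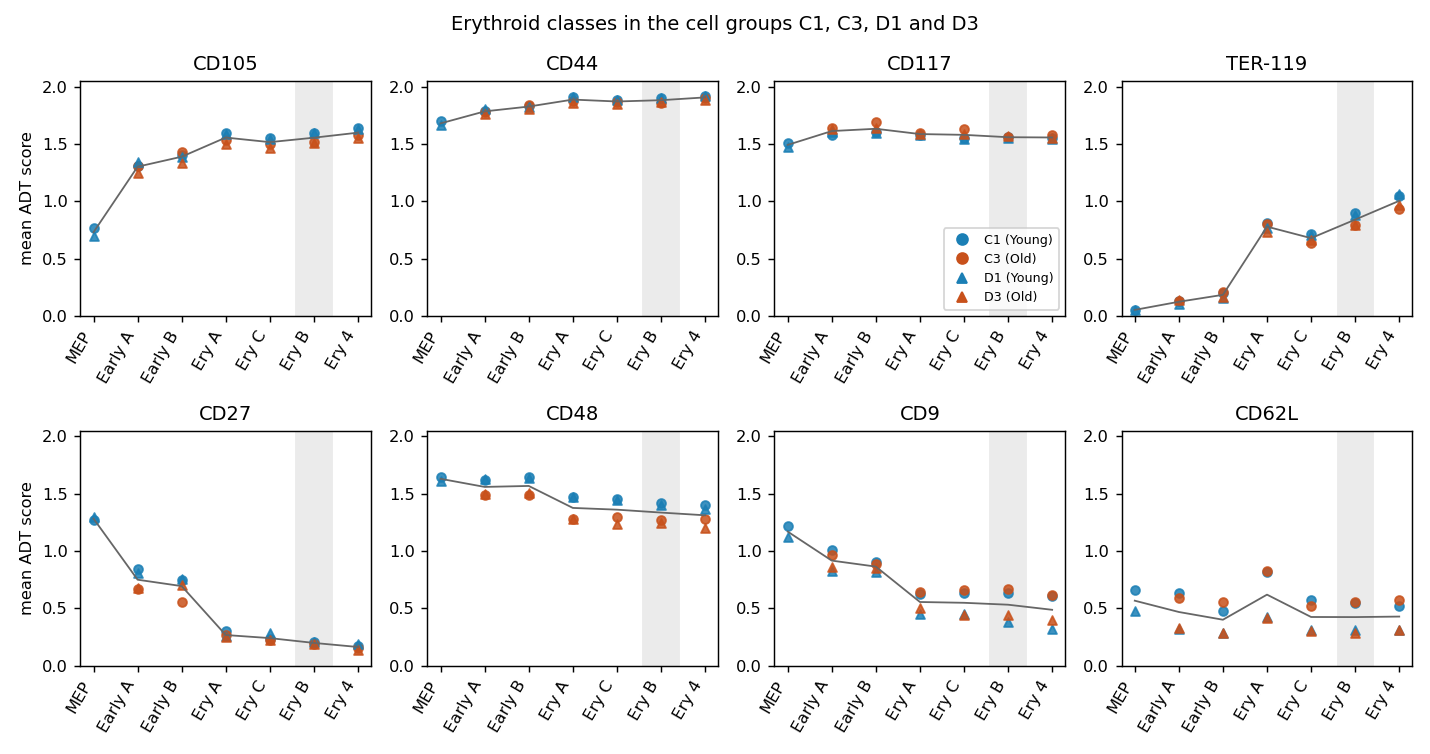
Mean ADT score (y axis, no unit) of 8 proteins in 7 erythroid and related classes (x axis) in C1, C3, D1 and D3, circles for letter C and triangles for letter D, blue for Young and orange for Old, with the mean over cell groups as a line and Ery B shaded. TER-119 was 0.84 in Ery B, between Ery A (0.78) and Ery 4 (1.00), and CD27 declined from 0.69 in Early Ery progenitor B to 0.20 in Ery B.

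Against Ery A, Ery B cells carried less CD62L and less CD27, and no other protein was called. A protein was called when its mean difference over cell groups with at least 10 cells of each class was at least 0.1 in size and had the same direction in all of them. In C1, C3, D1 and D3 a difference of 0.1 was a larger fold change for CD44, CD105, CD79b and CD117 than for TER-119. A lack of calls among these markers therefore does not show that their levels were equal. Over the 8 cell groups of letters C and D, 0 of 35 proteins were called higher in Ery B (0%) and 2 lower (5.71%), and the median difference of all 35 was -0.0123.

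CD62L (L-selectin, a homing receptor of leukocytes and multipotent progenitors) was the larger of both. In Ery B it was 0.54 in C1, 0.45 in C2, 0.56 in C3, 0.58 in C4, 0.31 in D1, 0.27 in D2, 0.28 in D3 and 0.37 in D4. In Ery A it was 0.82, 0.78, 0.83, 0.88, 0.42, 0.45, 0.41 and 0.51 in the same order. Ery B was lower in all 8 cell groups, by a mean difference of -0.217 ± 0.087 (SD, n = 8 cell groups). As a share of ADT counts, CD62L in Ery B was 0.520 times that in Ery A (geometric mean over cell groups). An Ery B cell drawn at random had a CD62L score above that of a random Ery A cell with a probability of 0.191 in C1, 0.191 in C3, 0.342 in D1 and 0.321 in D3. Averaged over these cell groups, CD62L was 0.62 in Ery A, against 0.42 in Ery B, 0.42 in Ery C and 0.43 in Ery 4. It was 0.47 in Early Ery progenitor A and 0.40 in Early Ery progenitor B. The lower CD62L was thus not particular to Ery B, and Ery A was the highest of these classes.

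The size of the CD62L difference went with the letter. It was -0.272, -0.328, -0.270 and -0.307 in C1 to C4 and -0.109, -0.181, -0.133 and -0.138 in D1 to D4. CD62L levels were themselves higher in letter C than in letter D in 45 of 48 pairs of the same class and number, with a median difference of 0.202, and CD9 in 47 of 48 pairs, with a median of 0.0909. The median CD62L count of an Ery B cell was 5 in C1 and C3 and 2 in D1 and D3. The part of the letter in the difference from Ery A was not tested.

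CD27 had a mean difference from Ery A of -0.104 ± 0.067 (SD, n = 8 cell groups), with Ery B lower in all 8 and a range from -0.245 in D2 to -0.0420 in C4. In the 4 cell groups of at least 100 Ery B cells its level was 0.19 to 0.21 in Ery B and 0.25 to 0.30 in Ery A, without overlap, but the mean difference there was under 0.1. The call rests on small cell groups: without D2 or without D4 it was lost and 1 protein, CD62L, remained.

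CD48 and CD34 (a sialomucin of stem and multipotent progenitors) were lower in Ery B in all 8 cell groups by less than the calling size, with mean differences of -0.0699 ± 0.052 for CD48 and -0.0362 ± 0.024 for CD34. CD150 had -0.0768 ± 0.072 and was lower in 7 of 8 cell groups. CD16/32 (Fc gamma receptors, high on granulocyte and macrophage progenitors) had -0.0443, Sca-1 0.00583, CD9 -0.031 and CD41 -0.00758, with both directions among their cell groups. Of the stem and multipotent list (Sca-1, CD34, CD135, CD48, CD150, CD27 and CD38), 1 of 7 was called lower, CD27, and the median difference was -0.0555, beside 2 of 35 (5.71%) and -0.0123 over all proteins. The erythroid list (CD117, CD105, CD44, TER-119 and CD150) had 0 of 5 called and a median of 0.00381.

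TER-119 was higher in Ery B than in Ery A in 6 of 8 cell groups. The differences were 0.088 in C1, 0.059 in C2, -0.012 in C3, 0.066 in C4, 0.109 in D1, 0.138 in D2, 0.060 in D3 and -0.0079 in D4, with a mean of 0.0626 ± 0.052 (SD, n = 8 cell groups). Both cell groups without a gain were Old. Taken over all cells of letters C and D without regard to cell group, TER-119 would be called higher in Ery B, and 16.6% of Ery A cells but 4.18% of Ery B cells came from the cell groups numbered 2 and 4, where TER-119 was low. The proteins CD105 (0.0305 ± 0.049), CD79b (0.0304 ± 0.049), CD44 (0.00381 ± 0.022) and CD117 (-0.0148 ± 0.018) did not reach the calling size.

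**Figure D3:**
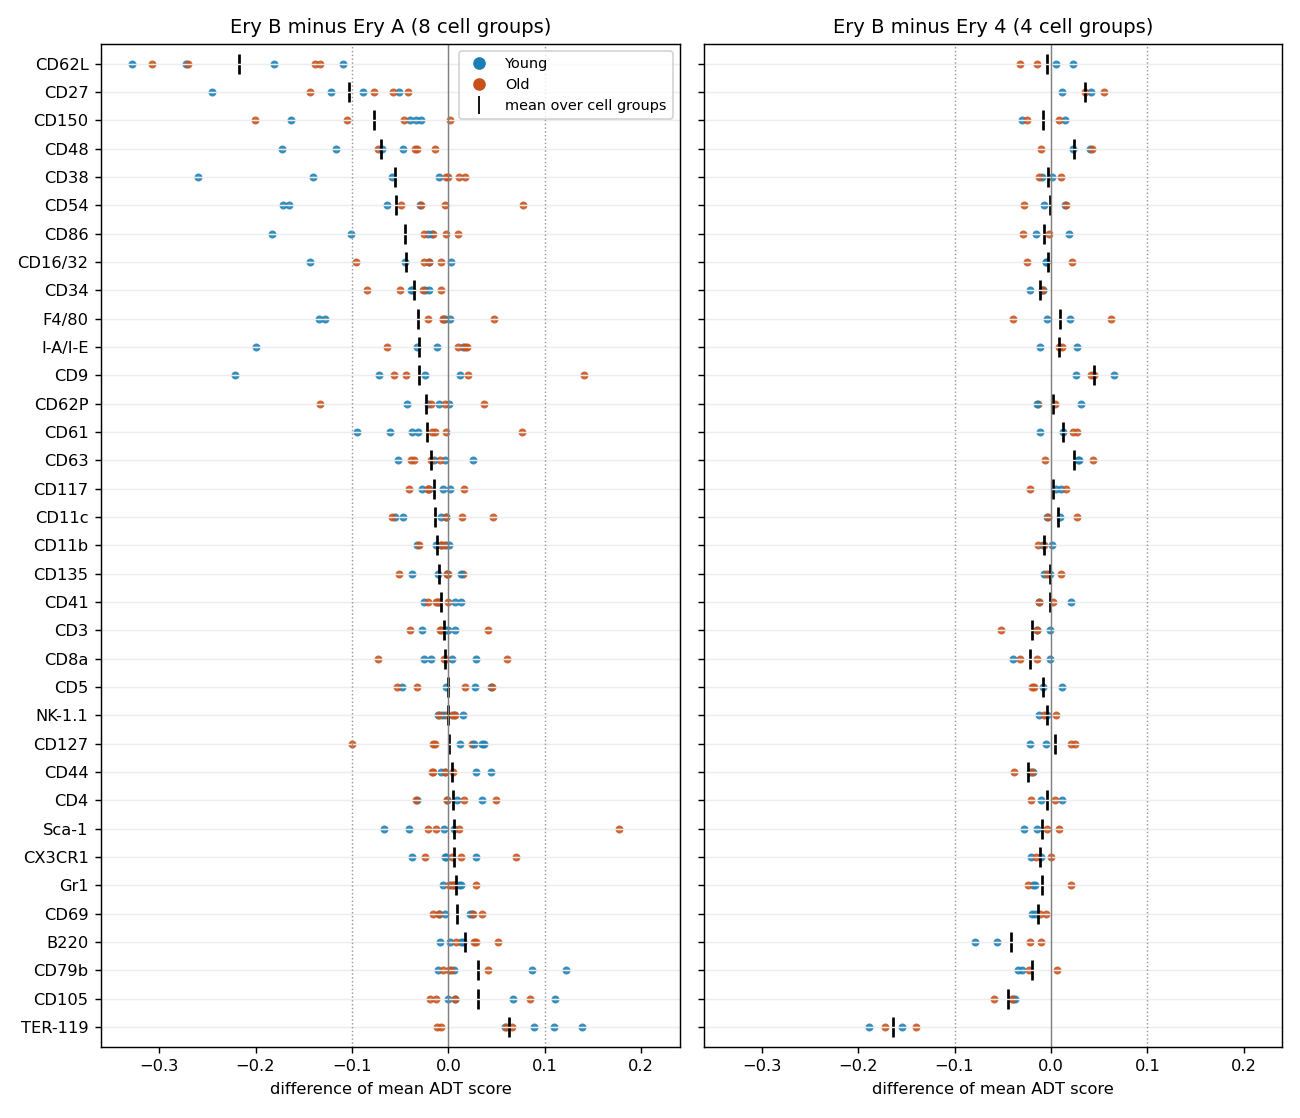
Difference of mean ADT score (x axis) for each of 35 antibodies (y axis), Ery B minus Ery A at left and Ery B minus Ery 4 at right, with 1 point per cell group (blue Young, orange Old), a bar at the mean and dotted lines at the calling size of 0.1. The means of CD62L and CD27 lay below -0.1 against Ery A, and that of TER-119 alone against Ery 4.

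Against Ery 4 the single protein called was TER-119. Over C1, C3, D1 and D3, 0 of 35 proteins were called higher in Ery B (0%) and 1 lower (2.86%). TER-119 was 0.90, 0.79, 0.88 and 0.79 in Ery B and 1.05, 0.93, 1.07 and 0.96 in Ery 4, so that every Ery 4 cell group lay above every Ery B cell group. The mean difference was -0.164 ± 0.021 (SD, n = 4 cell groups), and TER-119 took 0.724 times the share of ADT counts that it took in Ery 4. The median cell had 11 to 18 TER-119 counts in Ery B and 20 to 34 in Ery 4, and a random Ery B cell exceeded a random Ery 4 cell with a probability of 0.320 to 0.371. For CD105 this probability was 0.252 to 0.336 and for CD44 0.273 to 0.364. Single cells were thus not set apart better by TER-119 than by CD105 or CD44.

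On the scale of ADT shares, larger folds than that of TER-119 were seen in CD27 (1.61 times the share in Ery 4), CD63 (1.58), CD9 (1.46), CD61 (1.42) and I-A/I-E (1.40), of which CD27 and CD9 had a higher score in Ery B in all 4 cell groups. The median Ery B cell had 4 counts of CD9 and at most 1 of each of the others. Apart from TER-119, CD105, CD44, CD79b and CD3, every antibody of the panel took a larger share in Ery B than in Ery 4. A fold above 1 was thus not particular to the proteins named. Smaller score differences from Ery 4 went one way in each of the 4 cell groups. CD105 was 1.60, 1.52, 1.59 and 1.51 in Ery B and 1.64, 1.58, 1.63 and 1.55 in Ery 4, a mean difference of -0.0441 ± 0.010. CD44 had -0.0243 ± 0.0091 and CD34 -0.0118 ± 0.0068, while CD9 was higher in Ery B by 0.0444 ± 0.016 and CD27 by 0.0357 ± 0.018. CD79b (-0.0201), CD117 (0.00233), CD150 (-0.00800), CD48 (0.0238), Sca-1 (-0.00967), CD16/32 (-0.00317) and CD41 (-0.000592) had both directions. CD62L, which separated Ery B from Ery A, differed from Ery 4 by between -0.032 and 0.023. Both comparisons share the Ery B cells. Ery 4 cells were deeper than Ery B cells in ADT counts (medians of 1877.5 to 2544 against 1572 to 2232) and in RNA.

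**Figure D4:**
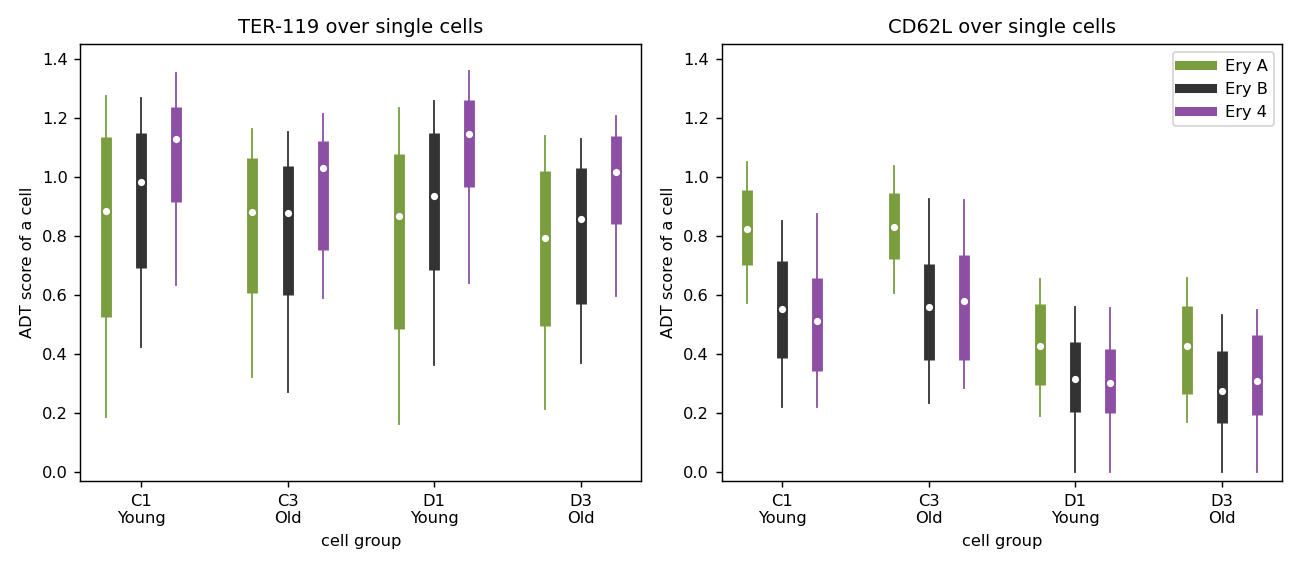
ADT score of single cells (y axis) in Ery A, Ery B and Ery 4 within C1, C3, D1 and D3 (x axis), with the median as a point, the 25th to 75th percentile as a thick bar and the 10th to 90th as a thin line. TER-119 medians were 0.86 to 0.98 in Ery B and 1.02 to 1.15 in Ery 4 with overlapping ranges, and CD62L medians in letter C were 0.55 and 0.56 in Ery B against 0.82 and 0.83 in Ery A.

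Ery C cells of the same letters gave the reverse for TER-119. Against the 167 Ery C cells in C1, C3, D1 and D3, 1 of 35 proteins was called higher in Ery B (2.86%) and 0 lower (0%). The TER-119 difference was 0.180 in C1, 0.159 in C3, 0.177 in D1 and 0.133 in D3, with a mean of 0.162 ± 0.022 (SD, n = 4 cell groups). Ery B was also higher in CD105 in each cell group (0.0388 ± 0.016) and in CD79b (0.0340 ± 0.031), and lower in CD27 (-0.0419 ± 0.024), all under the calling size. CD44 (0.0114), CD117 (-0.0206), CD150 (-0.0179), CD48 (-0.0254), CD9 (-0.0167), CD16/32 (-0.00687) and CD41 (0.00754) had both directions, and CD34 (0.0181) and Sca-1 (0.0275) were higher in Ery B in each cell group. C3 held 13 Ery C cells. This comparison was chosen after the data were seen.

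The authors called most Ery B cells positive for Egfp, the RNA of the GFP reporter. In letters C and D, 121 of 1460 Ery B cells (8.29%, interval 6.92% to 9.82%) were called negative, 6.94% of Young cells (5.34% to 8.85%) and 10.2% of Old cells (7.92% to 13.0%). By cell group the negative share was 9.32% in C1, 12.4% in C3, 5.62% in D1 and 8.38% in D3, so the Old cell group was higher within either letter and C1 was above D3. Ery A had 3.65% negative cells in Young and 10.5% in Old, and Ery 4 had 2.58% and 11.6%. In Ery B the intervals of both ages overlapped. Cells called negative had a median of 63667 RNA UMIs and positive cells one of 65435 UMIs.

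Surface protein differed little with the Egfp call. Over the 4 cell groups with at least 10 negative cells, 0 of 35 proteins were called higher (0%) and 0 lower (0%) in negative cells. TER-119 was higher in negative cells in all 4 (mean difference 0.0604 ± 0.021) and CD48 lower in all 4 (-0.0629 ± 0.024), and so were CD62L (-0.0563 ± 0.048) and CD63 (-0.0193 ± 0.025), all under the calling size, with 28 or 29 negative cells in each cell group. The markers differed by -0.00532 (CD79b) to 0.000548 (CD117), and CD150 (0.0320), CD16/32 (-0.0261), CD41 (-0.0107), CD34 (-0.00663), CD9 (0.00619) and Sca-1 (-0.00271) had both directions.

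Between ages, no protein of Ery B met the calling rule. With all 8 cell groups, 0 of 35 proteins were called higher in Old (0%) and 0 lower (0%), where a call needed a mean difference of 0.1 and no overlap between Old and Young cell groups. The largest mean differences, Old minus Young, were 0.104 for I-A/I-E (MHC class II), -0.0920 for CD48 and 0.0848 for CD9. Each of these 3 overlapped between ages. In the pairs C3 minus C1, D3 minus D1, C4 minus C2 and D4 minus D2, each of these 3 kept 1 direction. In that order I-A/I-E differed by 0.0853, 0.0550, 0.00347 and 0.271, which would meet the rule used between classes. CD9 differed by 0.0290, 0.0622, 0.0171 and 0.231 and CD48 by -0.154, -0.159, -0.0512 and -0.00403. The labels do not say which cell groups are paired. CD61 (integrin beta 3, the partner of CD41) alone did not overlap, with 0.118, 0.134, 0.0960 and 0.116 in the Young cell groups C1, C2, D1 and D2 and 0.143, 0.164, 0.134 and 0.203 in the Old cell groups C3, C4, D3 and D4. Its mean difference of 0.0454 was under the calling size, the nearest Old and Young cell groups were 0.000514 apart, and the median Ery B cell had 0 CD61 counts. TER-119 had -0.0513, CD105 -0.0498, Sca-1 0.0497, CD44 -0.0444, CD79b -0.0312, CD34 0.0260, CD16/32 0.0258, CD117 0.0251, CD150 -0.0188 and CD41 -8.27e-05. The sets of numbers differ more than the ages in several proteins, TER-119 among them, which widens the range within each age.

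In the cell groups of at least 100 Ery B cells, an alternative chosen after the data were seen, 0 of 35 proteins were called higher in Old (0%) and 1 lower (2.86%). CD48 was 1.42 in C1 and 1.41 in D1, both Young, and 1.27 in C3 and 1.25 in D3, both Old, a mean difference of -0.156. The small cell groups did not repeat that size, with 1.29 in C2 and 1.25 in D2 (Young) and 1.24 in C4 and 1.25 in D4 (Old). The same pairs differed in other classes too: C3 minus C1 and D3 minus D1 were -0.187 and -0.196 for CD48 in Ery A, -0.121 and -0.160 in Ery 4, -0.149 and -0.131 in Early Ery progenitor B, and -0.0824 and -0.0758 in GMP/Neut progenitor A. In Ery A the small pairs, C4 minus C2 and D4 minus D2, differed by -0.0947 and -0.143. The CD48 difference was thus not particular to Ery B.

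Other proteins of Ery B moved together in both large pairs without reaching the calling size as a mean. TER-119 was 0.90 and 0.88 in Young and 0.79 and 0.79 in Old, a mean difference of -0.0949. CD105 had -0.0820 and CD44 -0.0396, while Sca-1 (an antigen of stem cells and of interferon-exposed cells) had 0.0934, Gr1 0.0876, I-A/I-E 0.0702 and CD150 0.0426. Among the rest of the named proteins, CD16/32 had 0.0657, CD79b 0.0202, CD41 -0.0202, CD9 0.0456, CD117 0.00786 and CD34 0.000774. Of these, CD117 alone went opposite ways in C3 minus C1 (-0.00316) and D3 minus D1 (0.0189). CD9 and CD34 were higher in Old in both pairs but overlapped between ages across the letters. The same pairs gave -0.0612 and -0.0839 for CD105 and 0.0973 and 0.101 for Sca-1 in Ery A, and -0.0590 and -0.0826 for CD105 and 0.0790 and 0.0604 for Sca-1 in Ery 4. TER-119 gave -0.117 and -0.103 in Ery 4 and -0.00334 and -0.0371 in Ery A. In the small pairs of Ery B, C4 minus C2 and D4 minus D2, TER-119 differed by -0.00654 and -0.00889 and Sca-1 by 0.0903 and -0.0783. In the erythroid list 0 of 5 proteins were called and the median difference over the large cell groups was -0.0396. Young Ery B cells had a median of 1961 ADT counts and Old ones 1672.5, and the part of this depth in the age differences was not tested.

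**Figure D5:**
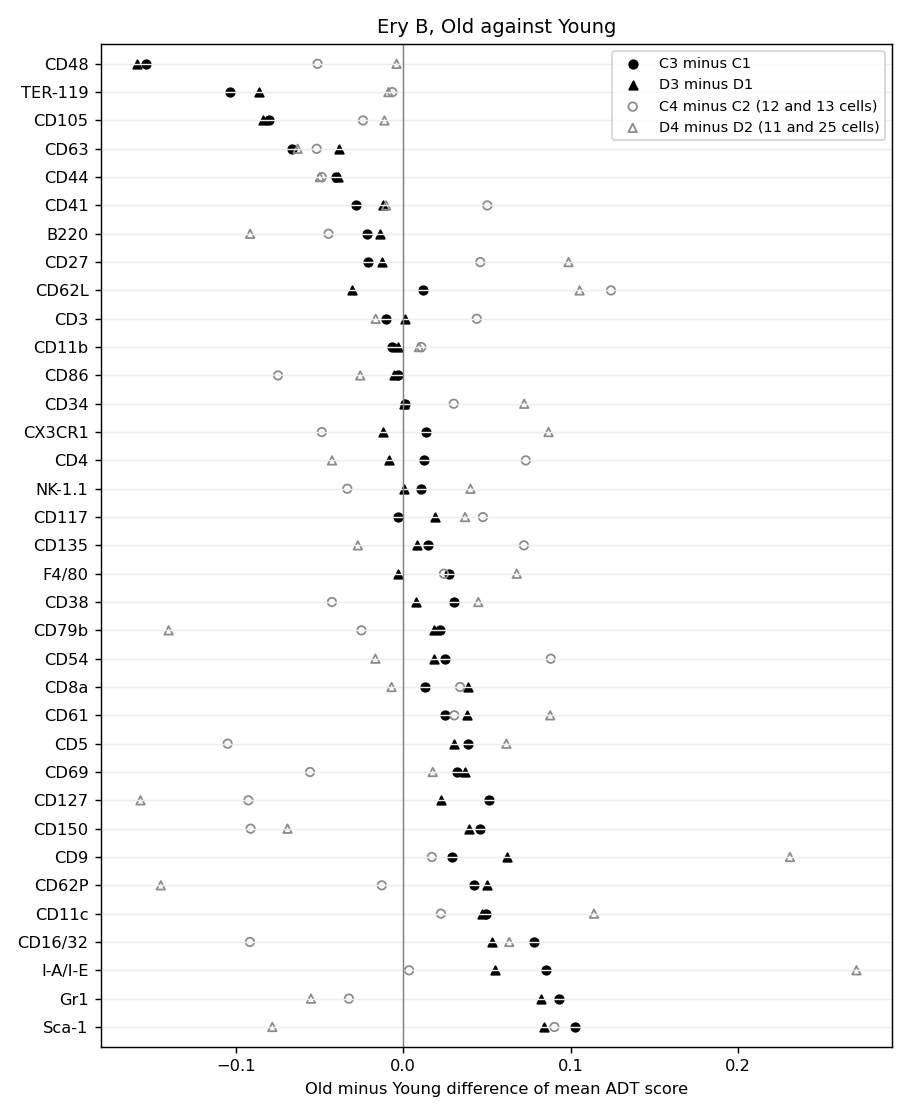
Old minus Young difference of mean ADT score in Ery B (x axis) for 35 antibodies (y axis), with filled symbols for C3 minus C1 and D3 minus D1 and open symbols for the pairs of small cell groups. CD48 lay at -0.154 and -0.159 in the large pairs and at -0.0512 and -0.00403 in the small ones.

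Antigens of other lineages ranged from CD79b, among the most abundant tags of Ery B, to CD11b, the least. CD11b, NK-1.1, CD4 and CD3 were at 0 counts in 73.6% to 83.5% of Ery B cells, and CD41, CD34, CD135 and CD11c had a median of 0 counts. In the comparison with Ery A, 0 of 8 myeloid and dendritic, 0 of 8 lymphoid and 0 of 6 megakaryocyte and platelet proteins were called, and with Ery 4 likewise 0 of 8, 0 of 8 and 0 of 6. With 2 of 35 proteins (5.71%) and 1 of 35 (2.86%) called over the panel, counts of 0 in lists of this size are no result about the lists. Gr1, with a median of 10 counts and a mean score of 0.84, and B220, with 4 counts and 0.42, were the sort's lineage antigens other than TER-119 with the most tags. Gr1 lay above the 0.54 of TER-119, both averaged over the 8 cell groups. In the 4 cell groups of at least 100 Ery B cells the order turned, with 0.84 for TER-119 and 0.80 for Gr1.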

How the data were processed

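CITE-seq data of c-Kit-enriched, lineage-negative bone marrow cells of FlkSwitch mice were used. The submitters' processing notes name Cell Ranger and mm10. ADT counts of 35 antibodies were deposited for 22790 cells. Age, RNA class, Egfp call and scores were given by the authors for 22602 of these, and the other 188 were not used. The authors made the score from the counts of each cell, as the count divided by the exponential of its mean log count, and rebuilding it with log(1 + x) taken 2 times in a row gave the deposited score to within 5.00e-10. The percent of mitochondrial counts and the RNA counts per cell are the authors' own. The fewest genes in an annotated cell were 503, and in an Ery B cell 2444.

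Means over cells were taken per cell group with at least 10 cells, differences within cell groups, and their mean and SD over cell groups. These SDs measure spread between cell groups, which may be technical. Letters C and D hold 8 cell groups, and no p-value was computed, since cells could not be assigned to libraries. Shares carry exact 95% intervals for counting error only. Named proteins were 4 markers, 8 proteins given whatever their difference, and up to 5 called proteins with the greatest mean difference in each comparison. CD27 and CD62L where not called were named beyond these after their values were seen. So were CD38, CD54, CD61, CD63, CD86, B220, Gr1, I-A/I-E and the low antigens. Members and lists were chosen with earlier results of these data known. Alternatives were the median over cells, at least 20 cells, log2 of counts per 1000 plus 1, centring on 8 lineage antibodies, a depth window, thinning to 300 ADT counts, no pairing, and leaving out each cell group. The procedure was tested on simulated data. Python 3.11.15, numpy 2.4.6, pandas 2.3.3 and scipy 1.17.1 were used.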

Additional observations from a re-analysis of the deposited data

Results flagged for a closer look

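Within 56 sets of 4 or 8 cell groups looked at for a value far from the others, 4 stood apart, where chance flags about 1 in 20. The Sca-1 difference between Ery B and Ery A was 0.177 in C4, with 13 Ery B cells, and between -0.0671 and 0.0110 in the other 7 cell groups. In C3, Ery B minus Ery 4 was -0.0592 for CD105, against -0.0402 to -0.0377 in the others, and -0.0378 for CD44, against -0.0213 to -0.0184. For CD34 it was -0.0219 in C1, against -0.00971 to -0.00783.

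In 3 of 56 comparisons of directions, Ery B minus Ery 4 went opposite ways in both cell groups of a letter or an age, and the differences were not tested. For CD150 the mean was -0.0274 in letter C and 0.0114 in letter D, a gap of -0.0388. For CD41 it was 0.0111 in letter C and -0.0123 in letter D, a gap of 0.0233. For CD62L it was -0.0233 in Old and 0.0143 in Young, a gap of -0.0376.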

How the results depend on the processing

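The 2 calls against Ery A stayed 2 with at least 20 cells and with centring on lineage antibodies, and without pairing, where TER-119 (higher) took the place of CD27. The count was 1, CD62L alone, with the median over cells, log2 of counts per 1000 plus 1, the depth window, thinning to 300 ADT counts, and cell groups of at least 100 Ery B cells (added after seeing the data), and 1 to 2 when each cell group was left out. CD62L was called in every one of these. Against Ery 4 the count was 1, TER-119, under all alternatives run. Between Old and Young, 0 calls became 1 with the median over cells (CD48), 3 with the depth window (CD48 and TER-119 lower, Sca-1 higher in Old), which leaves C1, C3, D1 and D3 alone, 1 without cell groups (CD48) and 1 with cell groups of at least 100 cells (CD48). They ranged from 0 to 1 when each cell group was left out: I-A/I-E without C2 and CD48 without D2. The cause was not tested. The share of Ery B, 15.6% in letters C and D, was 31.9% of erythroid classes and MEP and 6.47% over all letters, and 13.6% to 16.4% when each cell group was left out, lowest without D1. Of the single protein differences, 220 of 224 against Ery A, 128 of 154 against Ery 4 and 185 of 192 between ages moved by less than 1 SD over cell groups or kept their call on the log2 scale, and the other 37 moved further or lost the call, with no called difference changing sign. Thinning left out 2 of 1460 Ery B cells. Antibodies with a median of 0 or 1 count a cell, such as CD41 and CD27, are limited by depth.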
